A study of Homo sapiens with 4 samples.

Results

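The expression of 10 transcriptional regulators of the cell cycle was examined in human colorectal cancer cells after knockdown of SHMT2, the mitochondrial serine hydroxymethyltransferase of one-carbon metabolism. The 10 genes were chosen by name, for their place in the RB-E2F and B-MYB-FOXM1 system, with earlier results of these data known. The genes are E2F1, E2F2, E2F3, E2F7, E2F8, RB1, RBL1, RBL2, MYBL2 and FOXM1. They are 10 of the 26364 rows of the count table, and all 10 were among the 14024 genes with enough counts to be tested. The study has 4 RNA-seq libraries, a control and an SHMT2 knockdown of SW480 cells and a control and an SHMT2 knockdown of SW620 cells. SW480 was derived from a primary colon tumour and SW620 from a lymph node metastasis of the same patient. In the study's methods, the knockdown cells were puromycin-selected cells that carry a doxycycline-inducible shRNA against SHMT2. The methods name no control hairpin, the account of the expression profiles calls the controls control shRNA cells, and the labels call them control. Whether the controls were given doxycycline, and which hairpin was sequenced, is not stated. Each combination of line and condition is 1 library, and nothing in the labels says that libraries came from separate cultures. The p-values therefore rest on how far SW480 and SW620 disagree in the knockdown effect, pooled over genes. They do not measure the spread between replicate cultures. The study asked which transcripts follow the loss of SHMT2, and it examined the cell cycle of these cells. The comparison given here is knockdown against control over both lines, followed by SW620 against SW480.

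As background, the E2F factors bind DNA with a DP partner and switch on the genes of the G1 to S transition. E2F1, E2F2 and E2F3 are the activators, while E2F7 and E2F8 are atypical E2Fs that bind without DP and repress the same genes. The pocket proteins RB1, RBL1 (p107) and RBL2 (p130) hold E2F in check until cyclin-dependent kinases phosphorylate them. RBL2 and RBL1 are also part of the DREAM complex, in which the MuvB core represses cell cycle genes in resting cells. In cycling cells MuvB leaves the pocket protein and joins MYBL2 (B-MYB) and then FOXM1, and these complexes switch on the genes of G2 and mitosis. Several of the regulators are targets of E2F themselves.

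The sequences below show the E2F-type letters in the regulators' own promoters. RefSeq windows on GRCh38.p14, from 250 bases before to 50 bases after a start site, were matched to 8 of the 10 genes, in 10 windows, and E2F8 and FOXM1 were not matched. The octamers TTTCCCGC, TTTCGCGC, TTTGCCGC and TTTGGCGC were searched on both strands, and at least 1 of them was found in 4 of the 8 genes, against 671 of 10315 tested genes with a window (6.51%) and 3.31% of all 35116 windows. Singly, they were in 1.63%, 0.515%, 0.607% and 0.652% of all windows. These 4 genes are E2F1, E2F2, E2F3 and RBL1. The 100 bases before the start site are given for each, along the gene's own strand, with the octamers in capitals. No 2 octamers overlapped in these genes. The windows are chr20:33686386-33686485 on the minus strand for E2F1, chr1:23531234-23531333 on the minus strand for E2F2, chr20:37095998-37096097 on the minus strand for RBL1 and chr6:20401779-20401878 on the plus strand for E2F3.
E2F1: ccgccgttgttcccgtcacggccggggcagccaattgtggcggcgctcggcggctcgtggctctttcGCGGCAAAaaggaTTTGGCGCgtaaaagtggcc
E2F2: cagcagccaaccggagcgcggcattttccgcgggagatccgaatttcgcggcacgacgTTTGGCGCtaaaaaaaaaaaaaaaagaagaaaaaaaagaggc
RBL1: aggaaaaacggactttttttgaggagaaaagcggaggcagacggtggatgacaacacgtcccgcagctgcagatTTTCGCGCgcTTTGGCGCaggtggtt
E2F3: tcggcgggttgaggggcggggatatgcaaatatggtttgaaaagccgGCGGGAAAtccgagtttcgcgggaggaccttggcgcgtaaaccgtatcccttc

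The promoters of E2F1 and RBL1 each hold a pair of octamers close to the start site. In E2F1, TTTGCCGC lies on the opposite strand at -33 to -26 and TTTGGCGC at -20 to -13, and in RBL1, TTTCGCGC lies at -26 to -19 and TTTGGCGC at -16 to -9. E2F2 has TTTGGCGC at -42 to -35, and E2F3 has TTTCCCGC on the opposite strand at -53 to -46. The hexamer TTTGAA, a core form of the CHR element through which MuvB complexes bind, was found in E2F3 at -65 to -60 and in RBL2 at 25 to 30, and in 15.2% of all windows. These are matches of letters and not measured binding sites.

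The 4 libraries held between 5530129 and 13774288 counts. Depth was uneven within the pairs, since the ratio of knockdown to control totals was 0.671 for SW480 and 2.49 for SW620. Levels are given as CPM, the counts of a gene relative to a common library size, scaled between libraries by TMM. SHMT2 had 2661 counts in the SW480 control and 205 in the SW480 knockdown, and 3751 and 640 in SW620, which left 11.2% and 6.92% of the control CPM. The epithelial markers EPCAM, KRT8 and KRT18 were abundant in every library, from 1831 counts for EPCAM up to 60779 for KRT8. VIL1 had 2 counts and 1 count in the SW480 libraries, against 2029 and 5105 in SW620. Of the other colon epithelium markers, CDH1 had 557 to 1956 counts and CDX2 had 54 to 180. KRT20 and CDH17 were low, KRT20 with 15 and 4 counts in SW480 control and knockdown and 1 and 2 in SW620. CDH17 had 1 and 0 counts in SW480 and 13 and 25 in SW620. Markers of other cell types were low, with summed CPM of 20.4 to 30.4 for fibroblasts, 4.91 to 11.6 for immune cells and 0.733 to 2.41 for endothelium. CD3E was at 0 in all 4 libraries, and 4 of 6 fibroblast, 4 of 5 immune and 3 of 4 endothelial markers were under 10 counts in every library.

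After SHMT2 knockdown, E2F1 fell, and no other regulator passed the adjusted test. With an unadjusted p of at most 0.05, 5 of the 10 regulators were lower in the knockdown (E2F1, E2F2, E2F8, MYBL2 and FOXM1) and 0 were higher. The median log2 fold change of the 10 regulators was -0.25 when the lines were fitted together, -0.27 within SW480 and -0.23 within SW620, whereas all genes tested had a median of 0.0075. These counts come from edgeR's quasi-likelihood test with a term for the cell line, adjusted over all 14024 genes by Benjamini-Hochberg and called at an adjusted p under 0.05. Of all genes tested, 1.17% were called lower and 0.492% higher, so 1 call in 10 stands against 1.17%. At the unadjusted limit, 4.91% of all genes were lower and 4.15% higher, beside 5 and 0 of the 10 regulators. In all, 7 regulators had a negative fold change in each of the lines, the 5 above with E2F3 and RB1, against 24.7% of all genes. The regulators were chosen with earlier results of these data known, so these shares are descriptions and not independent evidence. In bulk RNA, fewer cycling cells and less of a transcript per cell cannot be told apart.

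**Figure D1:**
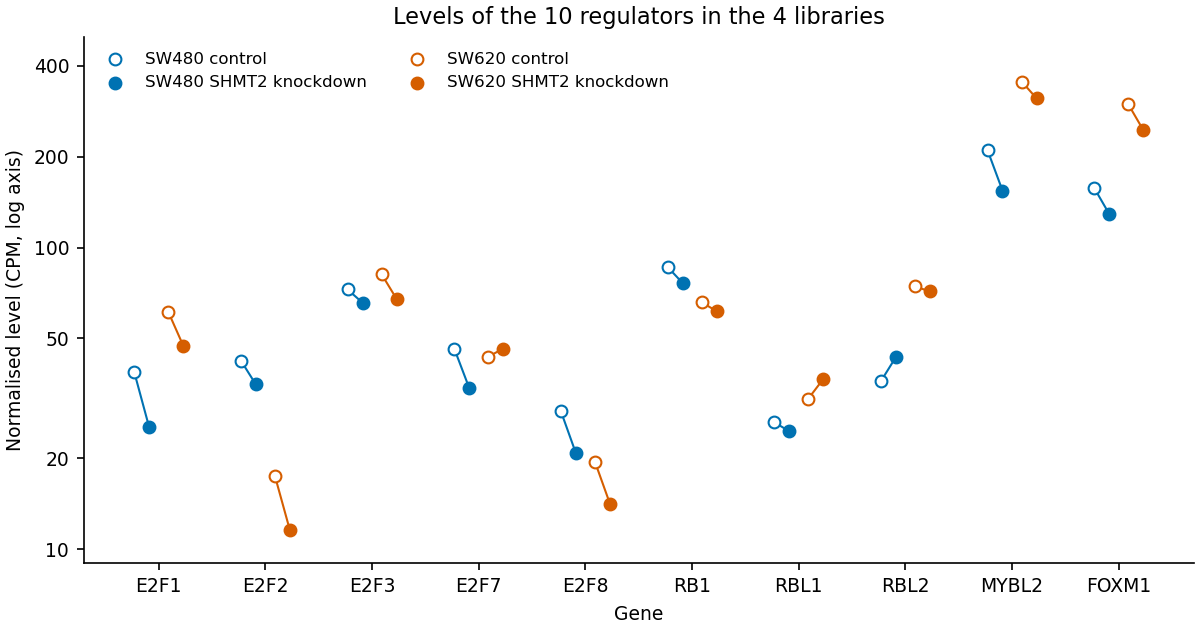
TMM-scaled CPM (log axis) of the 10 regulators in the 4 libraries, with open circles for controls, filled circles for SHMT2 knockdown, and a line joining the 2 libraries of a cell line. E2F1, E2F2, E2F3, E2F8, RB1, MYBL2 and FOXM1 slope down in both lines, and E2F7, RBL1 and RBL2 slope in opposite directions.

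Among the activators, the E2F1 gene (chr20:33675683-33686404, minus strand, GRCh38) had 371 counts in the SW480 control and 168 in the SW480 knockdown, and 333 and 635 in the SW620 control and knockdown. These are 38.6 and 25.3 CPM in SW480 and 61.1 and 47.2 CPM in SW620. Both knockdown libraries were thus lower than their own control, while the SW620 knockdown was still above the SW480 control. The SW480 knockdown kept 65.6% of its control's level and the SW620 knockdown 77.3%. Fitted together, the lines gave a log2 fold change of -0.48 (SE 0.14, adjusted p = 0.0475 by edgeR with Benjamini-Hochberg adjustment). The call lies close to the threshold and ended under each of the 6 other settings tried with a test. Its adjusted p became 0.0808 with no filter on low counts, 0.175 with a filter of 50 counts, 0.0578 with DESeq2's size factors and 0.734 with all libraries thinned to the smallest total. The DESeq2 Wald test gave it no adjusted p and an unadjusted value of 0.0661. With no term for the line in the model the adjusted p was 1.0. That fit called no gene at all, so its lack of a call says nothing about stability. Over the 5 alternative settings with an adjusted p and the fit as reported, the log2 fold change lay between -0.49 and -0.39.

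E2F2 (chr1:23506430-23531220, minus strand) had 42.2 CPM in the SW480 control, 35.1 in the SW480 knockdown, 17.4 in the SW620 control and 11.5 in the SW620 knockdown. The SW620 levels rest on 95 and 155 counts. The knockdown stood below its control in both lines, at 83.3% and 66.2% of control, and the levels of the lines did not overlap. The log2 fold change was -0.40 (SE 0.17, adjusted p = 0.347 by edgeR).

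E2F3 (chr6:20401906-20493715, plus strand) had 72.6 and 65.6 CPM in SW480 control and knockdown, and 81.4 and 67.5 CPM in SW620. It was the activator that differed least between the conditions, at 90.4% and 82.9% of control and with a log2 fold change of -0.21 (SE 0.13, adjusted p = 0.724 by edgeR). The annotation lists the pseudogenes E2F3P1 and E2F3P2, whose reads the counting could share with E2F3.

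Of the atypical E2Fs, E2F8 stood below its control in both lines, while E2F7 stood below it in SW480 and above it in SW620. E2F8 (chr11:19224063-19241620, minus strand) had 28.6 CPM in the SW480 control and 20.8 in the knockdown, and 19.4 and 14.1 CPM in SW620, so that both knockdown libraries were at 72.7% of control. Its log2 fold change of -0.46 was close to that of E2F1, with a larger error from fewer counts (SE 0.19, adjusted p = 0.296 by edgeR). E2F7 (chr12:77021247-77065580, minus strand) had 46.2 and 34.2 CPM in SW480 control and knockdown, but 43.5 and 46.2 CPM in SW620. The SW480 knockdown was the one low library among the 4. Within SW480 the log2 fold change of E2F7 was -0.43, within SW620 it was 0.09, and over both lines -0.17 (SE 0.14, adjusted p = 0.879 by edgeR). The effect in SW480 less that in SW620 was -0.52, with a 95% interval of -0.84 to -0.20 that covers counting error only. With 1 library per line and condition this difference could not be tested.

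Fitted over both lines, the pocket proteins differed little between knockdown and control, and none passed the test at either limit. RB1 (chr13:48303726-48599436, plus strand), the retinoblastoma protein, had 86.2 and 76.3 CPM in SW480 control and knockdown and 65.8 and 61.5 CPM in SW620. It stood slightly below control in both lines (log2 fold change -0.14, SE 0.13, adjusted p = 0.911 by edgeR). RBL1 (chr20:36996349-37095995, minus strand), the pocket protein with its own E2F octamers, had 26.3 and 24.6 CPM in SW480 and 31.5 and 36.6 CPM in SW620. Its knockdown libraries were thus at 93.3% and 116% of control, on opposite sides, with a log2 fold change over both lines of 0.07 (SE 0.16, adjusted p = 0.982 by edgeR). RBL2 (chr16:53433977-53491649, plus strand), the pocket protein of resting cells, had 36.02 and 43.3 CPM in SW480 and 74.3 and 71.5 CPM in SW620. Here SW480 was the line with the higher knockdown library, at 120% of control against 96.3% in SW620, and the joint log2 fold change was 0.09 (SE 0.14, adjusted p = 0.964 by edgeR). Exon bases of RBL1 (211) and RBL2 (610 with AKTIP and 721 with another gene) are shared with genes on the opposite strand, and the use of strand in the counting is not given in the sources used here.

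MYBL2 and FOXM1 had the most counts of the 10 and the smallest errors. MYBL2 (chr20:43667019-43716496, plus strand) had 2018 counts in the SW480 control and 1024 in the knockdown, and 1937 and 4199 in SW620, or 210 and 154 CPM in SW480 and 355 and 312 CPM in SW620. Both knockdown libraries were lower, at 73.5% of control for SW480 and 87.9% for SW620. Its log2 fold change, lines fitted together, was -0.31 (SE 0.11, adjusted p = 0.149 by edgeR), and the effect in SW480 less that in SW620 was -0.26 (95% counting interval -0.39 to -0.12, no test). FOXM1 (chr12:2857681-2877155, minus strand) had 158 and 129 CPM in SW480 control and knockdown and 298 and 245 CPM in SW620. The lines had nearly equal values, at 82.1% and 82.2% of control, and the effect in SW480 less that in SW620 was -0.0020 (95% counting interval -0.15 to 0.15). Its log2 fold change over both lines was -0.28 (SE 0.11, adjusted p = 0.275 by edgeR). FOXM1 shares 781 exon bases with ITFG2 on the opposite strand.

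**Figure D2:**
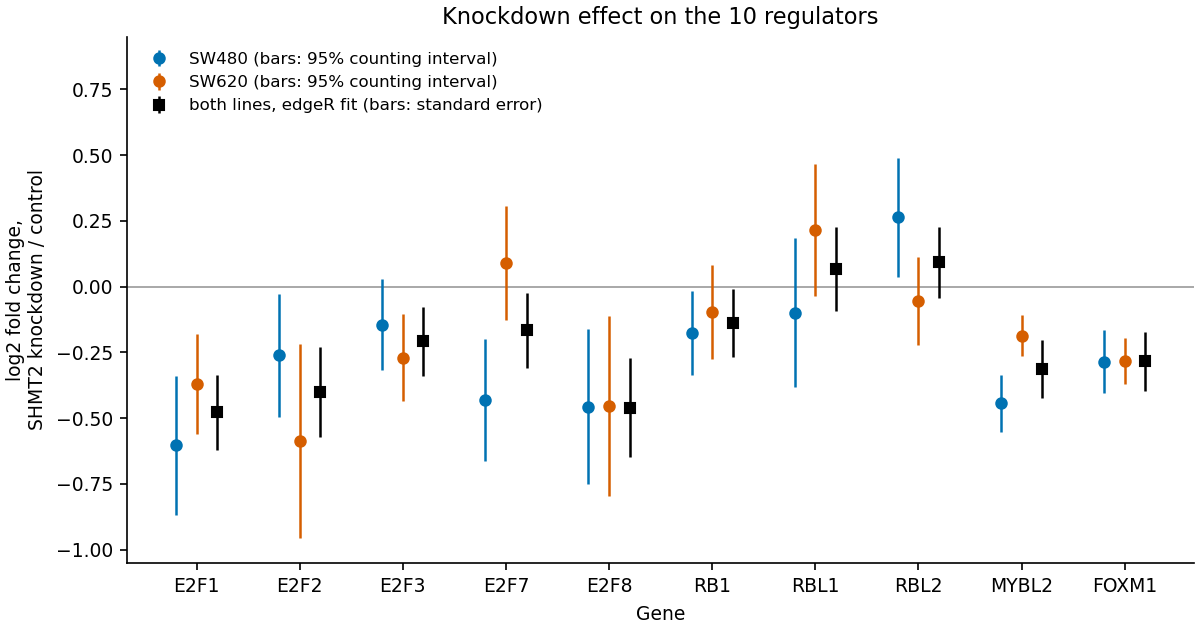
Log2 fold change of SHMT2 knockdown over control for each regulator, in SW480 and SW620 with 95% counting intervals and over both lines with the standard error of the edgeR fit. E2F1, E2F2, E2F8, MYBL2 and FOXM1 lie below 0 with their whole counting interval in both lines, while E2F7 and RB1 do so in SW480 and E2F3 in SW620. RBL2 in SW480 lies above 0 with its whole counting interval (0.04 to 0.49).

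The partners and targets of these regulators were taken as 8 lists with 108 genes, of which 107 were tested. Of these, 12 were called lower and 1 higher, and 47 were lower and 1 higher at the unadjusted limit, with a median log2 fold change of -0.22. The lists were written by hand with earlier results of these data known, so their direction is not independent evidence. Of the 13 calls, 9 were shared by the fit with no filter on low counts, 10 by that with DESeq2's size factors, 2 by the DESeq2 Wald test (CCND1 and PCNA) and 1 by the filter of 50 counts and by the thinned libraries (CCND1). None was made when the cell line was left out of the model, a fit whose common dispersion was 0.562 against 0.00819 with the line and whose lack of calls says nothing about stability.

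Most target genes stood below their control in both lines. Of all genes tested, 24.7% were lower in both lines and 1.17% were called lower. At the unadjusted limit, 4.91% of all genes were lower and 4.15% higher. Of 30 G1/S targets of E2F, 4 fell by the adjusted test, 22 were lower and 0 higher at the unadjusted limit, and 29 were lower in both lines, with medians of -0.31 for the log2 fold change over both lines, -0.37 within SW480 and -0.23 within SW620. The 4 are CDC6, which loads the replicative helicase (-0.48, adjusted p = 0.00922 by edgeR), MCM10 (-0.48, adjusted p = 0.0149), the DNA clamp PCNA (-0.42, adjusted p = 0.00367) and the thymidine kinase TK1 (-0.47, adjusted p = 0.00400). POLA1, the catalytic subunit of DNA polymerase alpha, was the one target not lower in both lines, at -0.15 and 0.07, and was picked out after its values were seen. Of 30 G2/M targets of B-MYB and FOXM1, 4 fell by the adjusted test, 18 were lower and 0 higher at the unadjusted limit, and 28 were lower in both lines, with medians of -0.28 over both lines, -0.25 within SW480 and -0.24 within SW620. The 4 are the mitotic kinase CDK1 (-0.43, adjusted p = 0.0409 by edgeR), the ubiquitin-conjugating enzyme UBE2C of the anaphase-promoting complex (-0.49, adjusted p = 0.00537), the spindle midzone protein PRC1 (-0.39, adjusted p = 0.0409) and CDCA3 (-0.47, adjusted p = 0.0458). The calls of CDK1, PRC1 and CDCA3 were made in none of the 6 alternatives, of which the fit without the cell line made no call at all. That of UBE2C held with no filter and with DESeq2's size factors, where the 4 G1/S calls also held. TTK and BORA, also picked out after their values were seen, were the G2/M targets above 0 in SW620, at 0.02 each.

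CDC6 is shown in the single libraries as an example with a larger change (-0.48) than the median of the G1/S targets (-0.31). It had 131 CPM in the SW480 control and 85.1 in the SW480 knockdown, and 114 and 89.5 CPM in SW620, so that both knockdown libraries were below both controls. UBE2C, also with a larger change (-0.49) than the median of its list (-0.28), had 137 and 95.6 CPM in SW480. It had 150 and 109 CPM in SW620, with the same separation. Of the other called targets, MCM10 was separated in this way too, and PCNA, TK1, CDK1, PRC1 and CDCA3 were not. For PCNA the SW620 knockdown, at 601 CPM, was above the SW480 control, at 366 CPM.

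Upstream of RB, CCND1, the D-type cyclin that starts RB phosphorylation, had the largest fold change of the 107 genes. It had 948 CPM in the SW480 control and 349 in the knockdown, and 217 and 83.9 CPM in SW620, a log2 fold change of -1.41 (adjusted p = 2.90e-36 by edgeR). CDK2, the partner of cyclins E and A, fell by 0.56 on the log2 scale (adjusted p = 0.00270), from 91.8 to 65.6 CPM in SW480 and from 93.1 to 60.3 CPM in SW620. These were 2 of 14 tested kinases, cyclins and inhibitors called lower, against 1.17% of all genes, with 0 called higher and a median of -0.09. CCND2 was not tested, with 1, 0, 4 and 54 counts. Of 6 turnover factors, CDC20, an activator of the anaphase-promoting complex, was called (-0.51, adjusted p = 8.13e-04 by edgeR), and the list's median was -0.08.

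The subunits that work beside the 10 regulators were not called in either direction. The other E2F and DP subunits had a median of 0.04 over 5 genes, and the smallest p-values were those of E2F5 (0.30, adjusted p = 0.776 by edgeR) and TFDP1 (-0.14, adjusted p = 0.851). The 5 genes of the MuvB core had a median of 0.03, with LIN52 at -0.40 (adjusted p = 0.722). The 9 corepressors of RB had a median of -0.03, with SUV39H1, a histone H3K9 methyltransferase, at -0.32 (adjusted p = 0.384 by edgeR) and ARID4A at 0.30 (adjusted p = 0.569). Among the 8 apoptosis targets of E2F1, PMAIP1 (NOXA), a BH3-only protein, fell (-0.58, adjusted p = 0.0263 by edgeR), and the median of the list was -0.13.

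**Figure D3:**
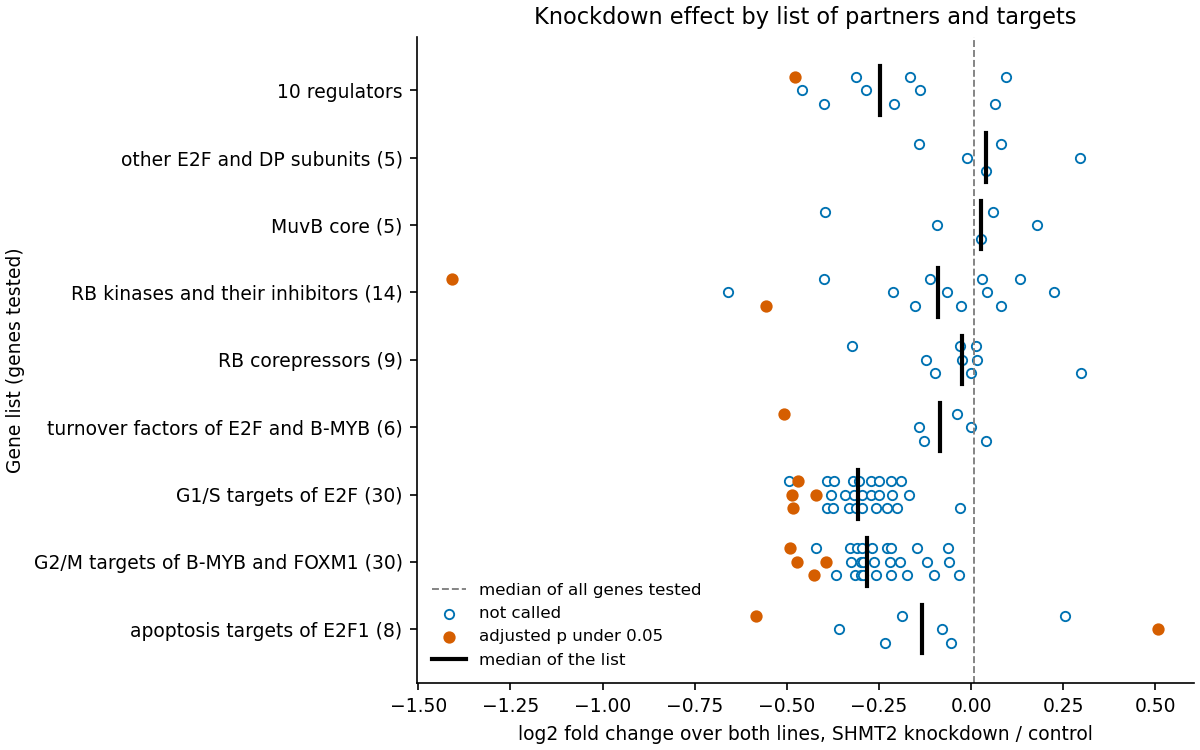
Log2 fold change over both lines, SHMT2 knockdown against control, of each gene in the 10 regulators and in the 8 lists of partners and targets, with filled points for an adjusted p under 0.05, a black bar for each list's median and a dashed line for the median of all genes tested. The target lists of E2F and of B-MYB and FOXM1 lie between -0.49 and -0.03, while the E2F and DP subunits and the MuvB core lie on both sides of 0.

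The promoter letters shown above were unevenly spread over the target lists. An E2F octamer was present in 15 of 26 G1/S targets with a window (57.7%) and in 2 of 25 G2/M targets (8.0%), while TTTGAA was present in 1 of 26 (3.85%) and 18 of 25, against 13.4% of tested genes. Over all tested genes with a window, 64 of the 671 with an octamer were lower at the unadjusted limit (9.54%) and 13 higher, with a median of -0.02. Of the 9644 genes without one, 461 were lower (4.78%) and 413 higher, with a median of 0.0068. With TTTGAA, 101 of 1379 genes were lower (7.32%) and 60 higher, and without it 424 of 8936 (4.74%) and 366. The letters are counted in 300-base windows, and these shares are descriptions with no test.

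Some epithelial genes also moved with the knockdown. KRT8 and KRT18, keratins of simple epithelium, were called lower (-0.34 each, adjusted p = 0.00406 and 0.00537 by edgeR), and CDH1, the epithelial cadherin, was called higher (0.45, adjusted p = 0.0210). The summed level of the 8 colon epithelium markers was 5736 CPM in the SW480 control, 4258 in the SW480 knockdown, 9827 in the SW620 control and 8765 in the SW620 knockdown. Most of this sum was KRT8 and KRT18, at 3427 and 1929 CPM in the SW480 control. On the log2 scale EPCAM was at 0.01, VIL1 at 0.02, CDX2 at 0.29 and CDH17 at -0.43, none of them called. The part of these epithelial changes in the regulators' differences was not tested.

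Most of the regulators differed between the cell lines. By the line term of the same edgeR fit, 5 regulators were higher in SW620 (E2F1, RBL1, RBL2, MYBL2 and FOXM1) and 3 were lower (E2F2, E2F8 and RB1), while E2F3 and E2F7 were not called. Of all genes tested, 32.3% were called higher and 31.3% lower in SW620, so calls were common in this comparison. The median log2 difference, SW620 less SW480, was 0.30 over the 10 regulators and 0.0102 over all genes.

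Among the genes higher in SW620, FOXM1 differed by 0.92 on the log2 scale (SE 0.11, adjusted p = 3.65e-15 by edgeR), MYBL2 by 0.89 (SE 0.11, adjusted p = 5.98e-15) and RBL2 by 0.88 (SE 0.14, adjusted p = 3.71e-10). In the control libraries these are 1.89-fold, 1.69-fold and 2.06-fold. E2F1 was higher by 0.77 (SE 0.14, adjusted p = 2.01e-07) and RBL1 by 0.42 (SE 0.16, adjusted p = 0.0141). For FOXM1, MYBL2, RBL2 and E2F1, both SW620 libraries were above both SW480 libraries, and this was so for RBL1 too, by a smaller margin. The RBL1 call ended by the DESeq2 Wald test (adjusted p = 0.321) and in the thinned libraries (adjusted p = 0.146).

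E2F2 was the regulator with the largest difference between the lines, and it went the other way. It was lower in SW620 by a log2 difference of -1.45 (SE 0.17, adjusted p = 4.18e-16 by edgeR), which is 2.42-fold between the controls and 3.05-fold between the knockdowns. E2F8 differed by -0.56 (SE 0.19, adjusted p = 0.00540) and RB1 by -0.35 (SE 0.13, adjusted p = 0.0133). For E2F2 and RB1 both SW620 libraries were below both SW480 libraries. For E2F8 the SW620 control, at 19.4 CPM, was just below the SW480 knockdown, at 20.8. By the DESeq2 Wald test the adjusted p was 0.172 for E2F8 and 0.125 for RB1, and in the thinned libraries it was 0.0613 for RB1.

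E2F3 and E2F7 did not pass the line test, with 0.10 (SE 0.13, adjusted p = 0.505 by edgeR) and 0.18 (SE 0.14, adjusted p = 0.278). For E2F7 the lines were apart by -0.09 in the controls and by 0.43 in the knockdowns.

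**Figure D4:**
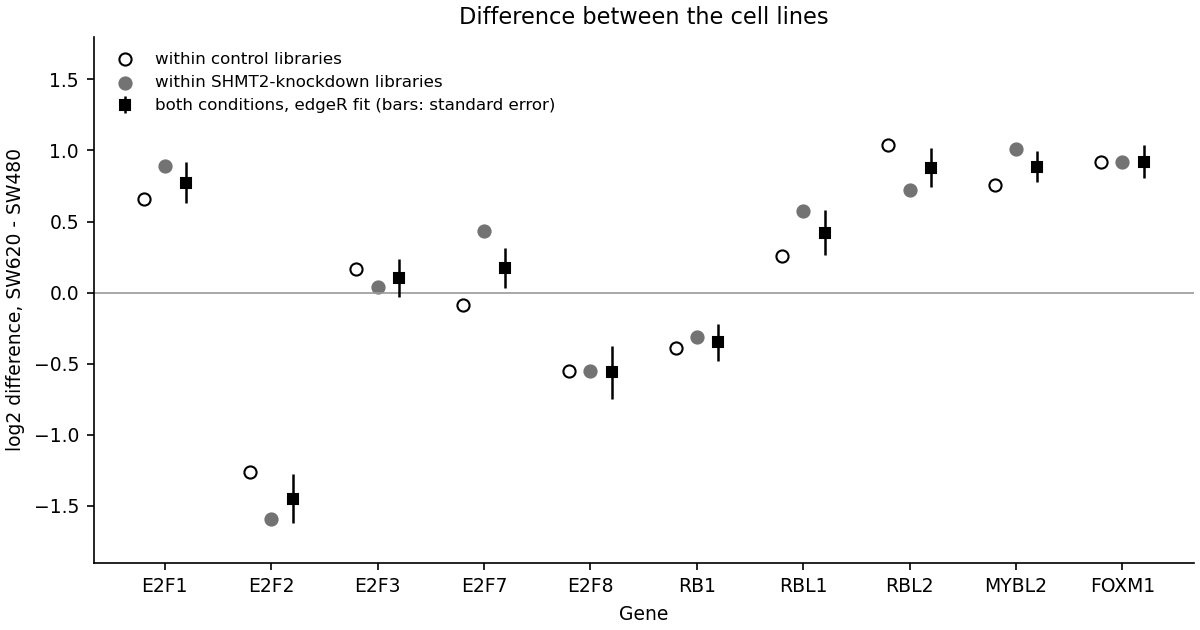
Log2 difference of SW620 less SW480 for each regulator, within the control libraries (open circles), within the SHMT2-knockdown libraries (grey circles) and over both conditions with the standard error of the edgeR fit (black squares). E2F2 lies lowest, and RBL2, MYBL2 and FOXM1 lie near 0.9 over both conditions.

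To order the regulators by level, CPM was divided by the length of each gene's merged exons in kilobases (GENCODE 29). MYBL2 ranked first in every library, at 75.7, 55.6, 128 and 112 CPM per kb in the SW480 control, SW480 knockdown, SW620 control and SW620 knockdown, and FOXM1 ranked next, at 32.2, 26.4, 60.9 and 50.04. Their 95% counting intervals were apart from each other and from the rest in all 4 libraries. E2F1 followed at 15.4 CPM per kb in the SW480 control and 24.4 in the SW620 control. In the SW480 control its interval overlapped those of E2F3 (14.1) and RB1 (13.4), which also overlapped each other. In the SW480 knockdown E2F1 (10.1) ranked below E2F3 and RB1, with an interval that overlapped those of both. In SW620, E2F1 stayed above E2F3 and RB1 in both libraries, and RB1 and RBL2 overlapped (10.2 and 10.1 in the control, 9.53 and 9.77 in the knockdown).

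The gene with the lowest value differed between the lines. E2F2 was the sixth gene in both SW480 libraries, at 7.73 and 6.44 CPM per kb, and the last in both SW620 libraries, at 3.19 and 2.11. In the SW620 control its interval overlapped that of E2F8 (4.69), and in the SW480 knockdown those of RBL2, E2F7 and E2F8. RBL1 was the last in SW480, at 4.42 and 4.13, and the eighth in SW620, at 5.30 and 6.16. Its interval overlapped those of E2F7 and E2F8 in the SW480 knockdown and in the SW620 control. In the SW480 control, E2F2, E2F7 (7.33) and E2F8 (6.92) overlapped, as did RBL2 (4.92) and RBL1. These intervals cover counting error only, and the exon lengths are those of the annotation used here and need not match the transcripts in these cells.

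The genes with the most similar pattern over the 4 libraries were found by the Euclidean distance between centred log2 CPM values, among 9279 genes with at least 50 counts in every library. For E2F1 they were CENPM (distance 0.0667), EIF3J (0.107) and CCNB2 (0.122), for MYBL2 CDC25A (0.0610), EEA1 (0.0668) and NEMP1 (0.0737), for FOXM1 ALG10B (0.0449), LOC100507424 (0.0459) and CDCA7 (0.0507), and for RB1 they included ZNF707 (0.0359) and GTPBP3 (0.0395). Over only 4 libraries, of which the lines set most of the pattern, such likeness is a description of these libraries.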

How the data were processed

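RNA of SW480 and SW620 cells was sequenced from Illumina TruSeq libraries per the labels, and the authors deposited raw read counts per gene symbol with no normalization. The submitters' processing notes name Bowtie 0.12.2 and the build hg18, while the program that counted reads, its annotation and its strand setting are not given in the sources used here. The paper's text also speaks of an Agilent platform. All values are whole and library totals differ.

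A gene was tested if 2 or more libraries had 10 or more counts (14024 of 26364). Counts were scaled by TMM (factors 0.978 to 1.03) and compared by the two-sided quasi-likelihood test of edgeR 4.0.16 (R 4.3.3) with terms for cell line and treatment. The paper names no model. The cell line pairs a knockdown with its control, and the SW480 libraries deviated together from their condition means (correlation over genes 0.961). One residual degree of freedom remained, so p-values rest on a dispersion shared across genes. For log2 values of single libraries 2 was the prior count. Intervals within a line cover counting error only. The members, lists, named genes and alternatives were chosen with earlier results of these data known. Named genes are the 10 regulators, SHMT2, the partner genes called or with the smallest p in a list with no call, and the 3 most alike genes of E2F1, MYBL2, FOXM1 and RB1, of which 2 are not reported here. Positions and exon lengths came from GENCODE 29 on GRCh38, and promoters from RefSeq on GRCh38.p14, neither being the build of the submitters' notes.

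On simulated counts with 200 genes changed by a log2 fold change of 1, edgeR with the cell line recovered 84.4% of the 199 tested and called 5 unchanged genes among 14049 tested, DESeq2 1.42.0 recovered 44.2%, and edgeR without the cell line recovered 0%, so the absence of adjusted calls from that model says nothing about stability. The alternatives left the cell line out of the model, dropped the filter or raised it to 50 counts, used size factors or the Wald test of DESeq2, thinned libraries to 5530129 counts in 1 random draw, or left out each line or condition.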

Additional observations from a re-analysis of the deposited data

Results flagged for a closer look

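For 3 of the 10 regulators, the knockdown library lay below its control in one cell line and above it in the other, and these differences were not tested, since each line has 1 library per condition. The log2 effect in SW480 less that in SW620 was -0.52 for E2F7, -0.31 for RBL1 and 0.32 for RBL2. The 95% counting interval ran from -0.84 to -0.20 for E2F7 and from 0.04 to 0.60 for RBL2, and from -0.69 to 0.06 for RBL1 it included 0. The median of the other E2F and DP subunits was also positive in SW480 (0.21) and negative in SW620 (-0.10), 0.31 apart and also without a test.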

How the results depend on the processing

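The number of regulators called lower in the knockdown was 1 as reported and 0 with no replicate block, with no filter on low counts, with a filter of 50 counts, with DESeq2's size factors, by the DESeq2 Wald test and with all libraries thinned to the smallest total. Over all genes, the knockdown calls were 164 lower and 69 higher as reported, 0 and 0 with no replicate block (the cell line left out, a fit whose lack of calls says nothing about stability), 137 and 46 with no filter, 54 and 15 with a filter of 50 counts, 145 and 72 with DESeq2's size factors, 21 and 5 by the DESeq2 Wald test, where 9516 genes including 5 regulators had no adjusted p, and 6 and 1 in the thinned libraries. At the unadjusted limit the 5 lower regulators became 0 with no replicate block, 2 by DESeq2 and 3 in the thinned libraries, and were 5 in the other settings, with 0 higher in all 7. Partner genes called lower, 12 as reported, were 0 with no replicate block, 1 with a filter of 50 counts, 2 by DESeq2 and 1 thinned, and the 1 called higher became 0 with no replicate block, with no filter, with a filter of 50 counts, by DESeq2 and thinned. The median knockdown effect of the regulators moved from -0.25 to -0.20 when thinned, RBL1 turned to -0.0066, and 1 regulator was lower in SW620 by DESeq2 against 3 as reported. Without SW480 or SW620 the median knockdown effect ranged from -0.27 to -0.23, and without the control or the knockdown libraries the median line difference ranged from 0.21 to 0.50. Leaving out the cell line raised the common dispersion from 0.00819 to 0.562, and thinning and stricter filters reduced the counts or genes tested; the cause of the other changes was not tested.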

Other observations

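CDKN1A (p21), an inhibitor of the kinases that phosphorylate RB, was picked out after its values were seen. It had 3629 counts in the SW480 control and 1906 in the SW480 knockdown, and 14 and 85 counts in SW620, or 378 and 287 CPM in SW480 and 2.57 and 6.32 CPM in SW620. The log2 difference between knockdown and control was -0.39 in SW480 and 1.23 in SW620, and that over both lines was -0.11 (adjusted p = 0.959 by edgeR). The SW620 levels were far below those of SW480 in both conditions, and the difference between the lines in the knockdown effect was not tested.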
